A study of Mus musculus with 9 samples.

Results

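The 10 genes described here encode transcription and splicing regulators that set whether a cell is epithelial or mesenchymal: Zeb1, Zeb2, Snai1, Snai2, Twist1, Prrx1, Ovol1, Grhl2, Esrp1 and Esrp2. They were chosen by name for their known roles, with earlier results of these data known but by no threshold on a value, and are 10 of the 49671 genes counted. The libraries came from mouse pancreatic cancer cells of the line KPC49bKO (KO), which was made to lack CD49b, the integrin alpha 2 chain encoded by Itga2, and from KPCWT (WT), which keeps it. The 4 groups were KO tumours (2 libraries), WT tumours (3 libraries), KO cultures (2 libraries) and WT cultures (2 libraries). For the tumours, cells were placed under the flank skin of syngeneic C57BL/6 mice. The excised tumours were broken up by an enzyme kit, and RNA was taken from the cell suspension. Cultured cells of both lines grew in the same serum medium. The labels describe 1 line of each genotype, and no source used here gives the ages of the mice. All p-values therefore measure the spread between these libraries, not between independently derived lines.

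Epithelial cells hold each other by E-cadherin junctions, and in an epithelial-mesenchymal transition (EMT) they loosen these contacts and take on migratory features. ZEB and SNAI zinc-finger proteins bind E-box sequences and repress epithelial genes such as Cdh1, while TWIST and PRRX proteins are EMT inducers that are also abundant in mesenchymal tissue. OVOL and GRHL factors maintain the epithelial state and oppose ZEB1, and the RNA-binding proteins ESRP1 and ESRP2 direct the epithelial pattern of exon use. In pancreatic ductal cancer, intermediate states between both ends are common.

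Totals of the libraries ran from 16032912 to 21247023 counts. All levels are given as CPM, the gene's count relative to the size of its library, scaled by the trimmed mean of M-values (TMM) over all 9 libraries. Calls are from edgeR's quasi-likelihood test, with Benjamini-Hochberg adjustment over all genes tested and a threshold of 0.05, and each log2 fold change has its standard error (SE). The targeted Itga2 had 44.5 and 64 CPM in KO tumours, against 119, 144 and 137 CPM in WT tumours (log2 fold change -1.32, SE 0.18, adjusted p = 0.00602). It had 96.5 and 104 CPM in KO cultures, against 168 and 135 CPM in WT cultures (log2 fold change -0.64, SE 0.17, adjusted p = 0.0135). Gene counts do not show whether this remaining RNA encodes the protein. Of 7 markers of the cancer epithelium, Krt8 averaged 3257 ± 452 CPM in KO tumours (SD, n = 2) and 1638 ± 252 CPM in WT tumours (SD, n = 3). Krt8 means were 3394 ± 20.3 CPM in KO cultures (SD, n = 2) and 3909 ± 294 CPM in WT cultures (SD, n = 2). Cdh1 averaged at least 702 CPM in every group. Epcam, another of the 7, averaged 37.6 CPM in KO tumours, 110 CPM in WT tumours, 0.0347 CPM in KO cultures and 3.5 CPM in WT cultures. Of the 7, 3 were higher and 1 was lower in KO tumours, and 1 was higher and 2 were lower in KO cultures. Over all genes tested, 8.78% were higher and 10.9% lower in KO tumours, and 9.27% higher and 16.2% lower in KO cultures. Like Krt8, Vim, the mesenchymal filament gene, was abundant. Its means were 2677 CPM in KO tumours, 1632 CPM in WT tumours, 1744 CPM in KO cultures and 1500 CPM in WT cultures. The batch label in these data is the same as the setting, so a tumour-to-culture difference and a batch difference cannot be told apart, and KO was compared with WT within each setting.

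The windows of 250 bases before the annotated start, from the RefSeq promoter table (GRCm38.p6), are shown for 4 of the 10 regulators. Twist1, Prrx1 and Zeb2 were the regulators that fell in KO cultures, and Snai1 was the other one for which a window was taken. The windows shown do not tell whether the table holds more of the 10. Capitals mark matches on either strand to CACCTG (the E-box bound by SNAI and ZEB) or GGAATG (the TEAD element). The other motif searched was TGANTCA (the AP-1 element). No 2 of these motifs overlap in the windows shown.
Twist1, chr12:33957421-33957670, plus strand: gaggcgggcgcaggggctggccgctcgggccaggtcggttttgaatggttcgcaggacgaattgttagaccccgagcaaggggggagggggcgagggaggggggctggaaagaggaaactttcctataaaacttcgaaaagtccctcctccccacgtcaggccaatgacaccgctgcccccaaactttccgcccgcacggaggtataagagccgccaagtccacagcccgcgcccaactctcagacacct
Prrx1, chr1:163313651-163313900, minus strand: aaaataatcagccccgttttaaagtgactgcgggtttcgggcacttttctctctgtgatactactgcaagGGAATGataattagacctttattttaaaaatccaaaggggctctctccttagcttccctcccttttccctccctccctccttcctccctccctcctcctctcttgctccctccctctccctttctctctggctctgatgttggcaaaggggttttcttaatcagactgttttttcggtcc
Zeb2, chr2:45117443-45117692, minus strand: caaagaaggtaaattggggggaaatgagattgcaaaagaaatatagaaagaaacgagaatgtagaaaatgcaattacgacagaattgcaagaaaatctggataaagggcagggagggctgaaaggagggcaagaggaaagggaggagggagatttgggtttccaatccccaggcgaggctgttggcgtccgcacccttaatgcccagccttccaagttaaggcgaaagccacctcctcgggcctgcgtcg
Snai1, chr2:167537945-167538194, plus strand: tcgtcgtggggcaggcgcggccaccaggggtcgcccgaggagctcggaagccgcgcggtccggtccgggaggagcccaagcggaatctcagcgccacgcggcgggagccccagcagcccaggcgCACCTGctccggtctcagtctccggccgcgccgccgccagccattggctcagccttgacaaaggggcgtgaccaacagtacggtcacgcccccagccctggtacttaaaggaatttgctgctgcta
The Snai1 window holds 1 CACCTG, which 17.2% of 32851 promoter windows hold. The Prrx1 window holds 1 GGAATG, which 12.6% of the windows hold. The Twist1 window and this Zeb2 window hold none of these letters, and TGANTCA, in 6.75% of all windows, is in none of the 4 shown. A Zeb2 start further inside the gene has 2 TGANTCA and 1 GGAATG in its window, chr2:45110278-45110527. Base composition differed, with 62.4% G and C in the Twist1 window, 47.6% in Prrx1, 49.6% in Zeb2 and 70.0% in Snai1, beside a median of 52.4% over all windows.

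In tumours, 8 of the 10 regulators had enough counts to be tested, and 4 of them (Snai2, Twist1, Prrx1 and Esrp1) were lower in KO and 0 were higher. Over all 16257 genes tested there, 19.7% were called in either direction, 8.78% higher and 10.9% lower. In cultures, 6 were tested, and 3 of them (Zeb2, Twist1 and Prrx1) were lower in KO and 0 were higher, where 25.5% of 13573 genes were called, 9.27% higher and 16.2% lower. Twist1 and Prrx1 were called in both settings. Genes that induce EMT and a gene of the epithelial splicing programme, Esrp1, were thus among those lower in KO tumours. For 6 of the 8 regulators tested in tumours every KO library lay on one side of every WT library, as for 53.7% of all genes. The same held for 5 of the 6 tested in cultures, as for 62% of all genes.

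**Figure D1:**
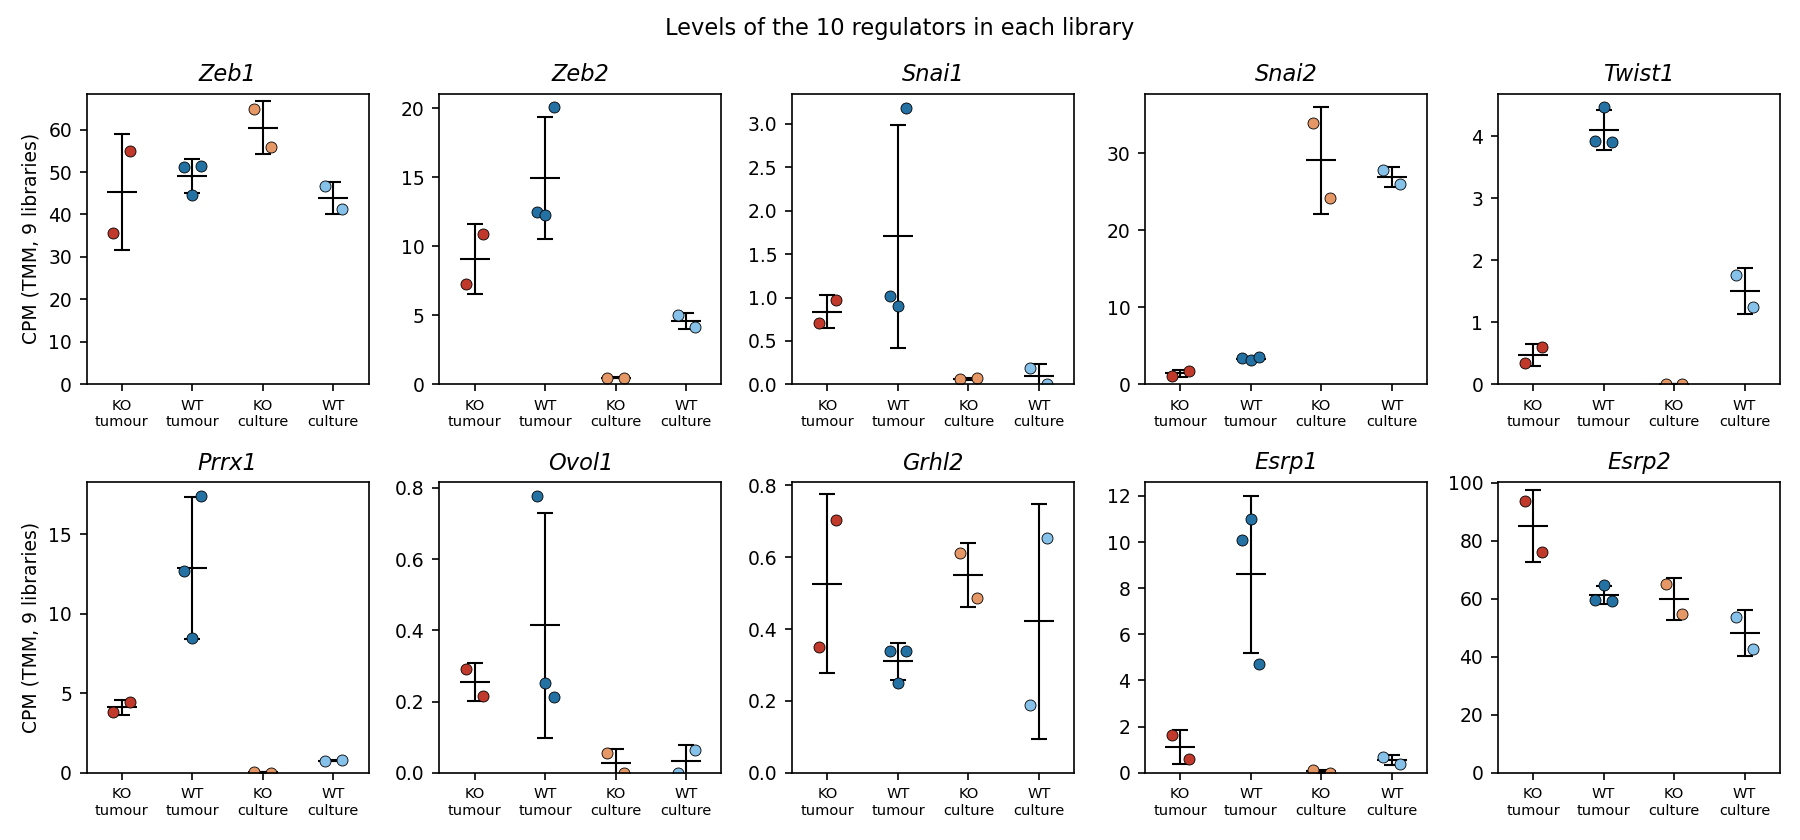
Level of each regulator in each library, in CPM on 1 TMM scale, for KO tumours, WT tumours, KO cultures and WT cultures. Points are libraries, the dash is the group mean and the bar its SD, and each panel has its own vertical axis from 0. Snai2 sits at 24.2 to 34 CPM in the cultures and at 1.11 to 3.53 CPM in the tumours, while Zeb2, Prrx1, Snai1 and Esrp1 are higher in the tumours.

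**Figure D2:**
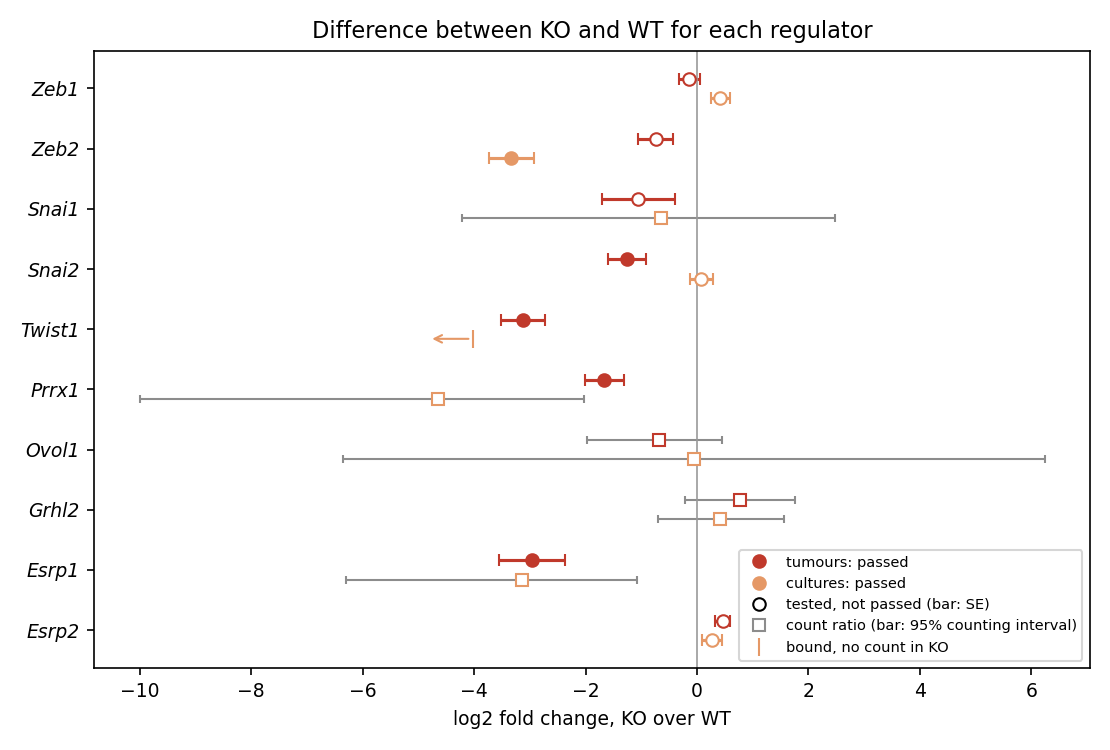
Log2 fold change of KO over WT for each regulator in tumours (red) and cultures (orange). Circles are edgeR estimates with SE, filled where the adjusted p was under 0.05. Squares are ratios of summed counts with 95% counting intervals, used where edgeR did not test the gene or KO had 1 to 3 counts, and the arrow starts at the bound for Twist1, which had 0 counts in KO cultures. Prrx1 and Twist1 in cultures also passed the test.

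Zeb1 (ENSMUSG00000024238, GRCm38 chromosome 18, 5591860 to 5775467, plus strand) encodes a repressor of Cdh1 and of the miR-200 family. It had 35.6 and 55 CPM in KO tumours, against 51.2, 44.5 and 51.4 CPM in WT tumours. It had 64.9 and 56 CPM in KO cultures, against 46.6 and 41.3 CPM in WT cultures. The tumour groups overlapped, with one KO tumour below all WT tumours and the other above them, whereas both KO cultures lay above both WT cultures. Neither difference passed the test, at -0.14 in tumours (SE 0.19, adjusted p = 0.646) and 0.42 in cultures (SE 0.17, adjusted p = 0.0974). Without KO tumour 1 the value in tumours was 0.14.

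Zeb2 (ENSMUSG00000026872, chromosome 2, 44983632 to 45117395, minus strand), the paralogue of Zeb1 with the same DNA-binding preference, had 7.3 and 10.9 CPM in KO tumours, against 12.5, 12.3 and 20.1 CPM in WT tumours. In culture it had 0.445 and 0.486 CPM in the KO line, from 8 and 7 counts, against 4.99 and 4.18 CPM in the WT line. KO libraries lay below WT libraries in both settings without overlap. The fall in cultures was 3.33 on the log2 scale (-3.33, SE 0.40, adjusted p = 6.42e-05) and passed under all 12 alternative settings. The value in tumours was -0.74 (SE 0.31, adjusted p = 0.134), not past the threshold under any of 13 settings. The KO effect in tumours minus that in culture was 2.57 (SE 0.51, adjusted p = 0.0159), one of 2 such differences past the threshold among the 8 regulators tested (the other was Snai2), where 5.69% of 16793 genes were called, 4.15% higher and 1.54% lower. That difference lost its call without KO culture 1, KO culture 2 or WT culture 1, and with limma-voom, with adjusted p from 3.89e-05 to 0.0996 over 16 alternatives. The antisense gene Zeb2os overlaps the locus and had 0 to 21 counts per library. Zeb2 made up 9.54% and 9.26% of the summed Zeb1 and Zeb2 level per kilobase of exon in KO tumours, against 11.2%, 12.4% and 16.8% in WT tumours. In KO cultures it made up 0.351% and 0.445% of that sum, against 5.22% and 4.95% in WT cultures.

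Snai1 (ENSMUSG00000042821, chromosome 2, 167538195 to 167542814, plus strand) encodes Snail, a short-lived repressor of Cdh1. It had 0.701 and 0.972 CPM in KO tumours, against 1.02, 0.904 and 3.19 CPM in WT tumours, where 1 of the 3 libraries stood above the others and 1 lay within the KO range. The log2 fold change in tumours was -1.05 (SE 0.66, adjusted p = 0.306), and -0.24 without WT tumour 3. In cultures it had 1 and 1 counts in KO libraries, against 3 and 0 in WT libraries. That did not pass the filter, and the ratio was 0.641 (95% counting interval 0.0536 to 5.6). Such intervals, here and below, cover counting error only.

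Snai2 (ENSMUSG00000022676, chromosome 16, 14705852 to 14709385, plus strand) encodes Slug, the paralogue of Snail that is also expressed in basal epithelial cells. It had 1.11 and 1.73 CPM in KO tumours, against 3.35, 3.11 and 3.53 CPM in WT tumours. It had 34 and 24.2 CPM in KO cultures, against 27.8 and 26 CPM in WT cultures. Both KO tumours lay below all WT tumours, while the cultures overlapped. The fall in tumours was 1.25 on the log2 scale (-1.25, SE 0.34, adjusted p = 0.0455), and the value in cultures was 0.08 (SE 0.20, adjusted p = 0.817). The effect in tumours minus that in culture was -1.34 (SE 0.35, adjusted p = 0.0489). Both calls are close to the threshold: the one in tumours held under 7 of 13 alternatives, and was lost without KO tumour 1 or without any 1 of the WT tumours, and the difference held under 5 of 16.

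Twist1 (ENSMUSG00000035799, chromosome 12, 33957671 to 33959829, plus strand) encodes a basic helix-loop-helix factor that induces EMT. It had 0.35 and 0.594 CPM in KO tumours, from 6 and 11 counts, against 3.93, 4.47 and 3.91 CPM in WT tumours. In cultures it had 0 counts in both KO libraries, against 28 and 19 counts in the WT libraries, which are 1.77 and 1.24 CPM. Every KO library was below every WT library of its setting, and all 3 WT tumours lay close together. Twist1 fell by 3.12 on the log2 scale in KO tumours (-3.12, SE 0.39, adjusted p = 0.00458) and was at least 16.3-fold lower in KO cultures, with 3 counts over the group as the floor (adjusted p = 0.000368). The call held under all 13 alternatives in tumours and all 12 in cultures. The fold itself rests on few counts, at 17 against 262 in tumours and 0 against 47 in cultures.

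Prrx1 (ENSMUSG00000026586, chromosome 1, 163245119 to 163313710, minus strand) encodes a homeobox factor of limb and connective tissue mesenchyme that can induce EMT. It had 3.79 and 4.43 CPM in KO tumours, against 12.7, 8.49 and 17.4 CPM in WT tumours. In cultures it had 1 and 0 counts in KO libraries, against 12 and 12 counts in WT libraries, which are 0.758 and 0.783 CPM. KO and WT libraries did not overlap in either setting. Prrx1 fell by 1.66 on the log2 scale in KO tumours (-1.66, SE 0.35, adjusted p = 0.0209). Its ratio of summed counts in cultures was 0.0401 (95% counting interval 0.000975 to 0.246), with an adjusted p of 0.00395 in edgeR's test. The call in tumours was lost without KO tumour 1 (adjusted p = 0.0853) and without WT tumour 1 (adjusted p = 0.0667), with a range from 0.000109 to 0.0853 over 13 alternatives.

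Prrx1, Zeb2, Snai2 and Twist1 are also expressed by fibroblasts, and the tumour libraries hold fibroblast RNA. In bulk samples, fewer cells of a type and less RNA per cell cannot be told apart. The 14 fibroblast and pericyte markers summed to 521 and 719 CPM in KO tumours, against 1701, 1169 and 3127 CPM in WT tumours. They summed to 0.208 to 0.556 CPM in KO cultures and 1.44 to 2.72 CPM in WT cultures, with 8 of the 14 at 0 counts in KO cultures and 7 in WT cultures, Col1a2, Dcn and Lum among them in both. In tumours, 5 of 13 tested were lower in KO and 0 were higher, beside 10.9% lower and 8.78% higher over all genes tested. Col1a1, Col1a2 and Col3a1 were the largest parts of the sum and weigh most in the ratios below. Col1a1 had 234 ± 83.3 CPM in KO tumours (SD, n = 2) against 901 ± 449 CPM in WT tumours (SD, n = 3). The log2 fold change was below 0 for 11 of the 13. It was above 0 for Rgs5, at 47.6 CPM in KO tumours and 31.8 CPM in WT tumours, and for Cspg4, at 8.11 and 7.71 CPM. Neither was called. Prrx1 per 1000 CPM of these markers, a ratio formed after the values were seen, was 7.28 and 6.16 in KO tumours, against 7.45, 7.26 and 5.57 in WT tumours, so on this scale the groups overlapped. Snai2 per 1000 CPM was 2.13 and 2.4 in KO tumours, against 1.97, 2.66 and 1.13 in WT tumours, again with overlap. Twist1 per 1000 CPM was 0.672 and 0.827 in KO tumours, against 2.31, 3.82 and 1.25 in WT tumours, and stayed lower in both KO libraries. Zeb2 per 1000 CPM was 14 and 15.2 in KO tumours, against 7.37, 10.5 and 6.44 in WT tumours, and was thus higher in both KO libraries on this scale. The part of fibroblast RNA in the tumour results of these genes was not tested. In cultures, where these markers summed to 1.44 to 2.72 CPM in the WT line, Zeb2, Twist1 and Prrx1 were lower in KO. Col1a1, the 1 marker tested there, fell as well, with 1 count in KO cultures and 50 in WT cultures (-5.41, adjusted p = 0.00135). Any part of fibroblast RNA in the culture results was not tested either.

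**Figure D3:**
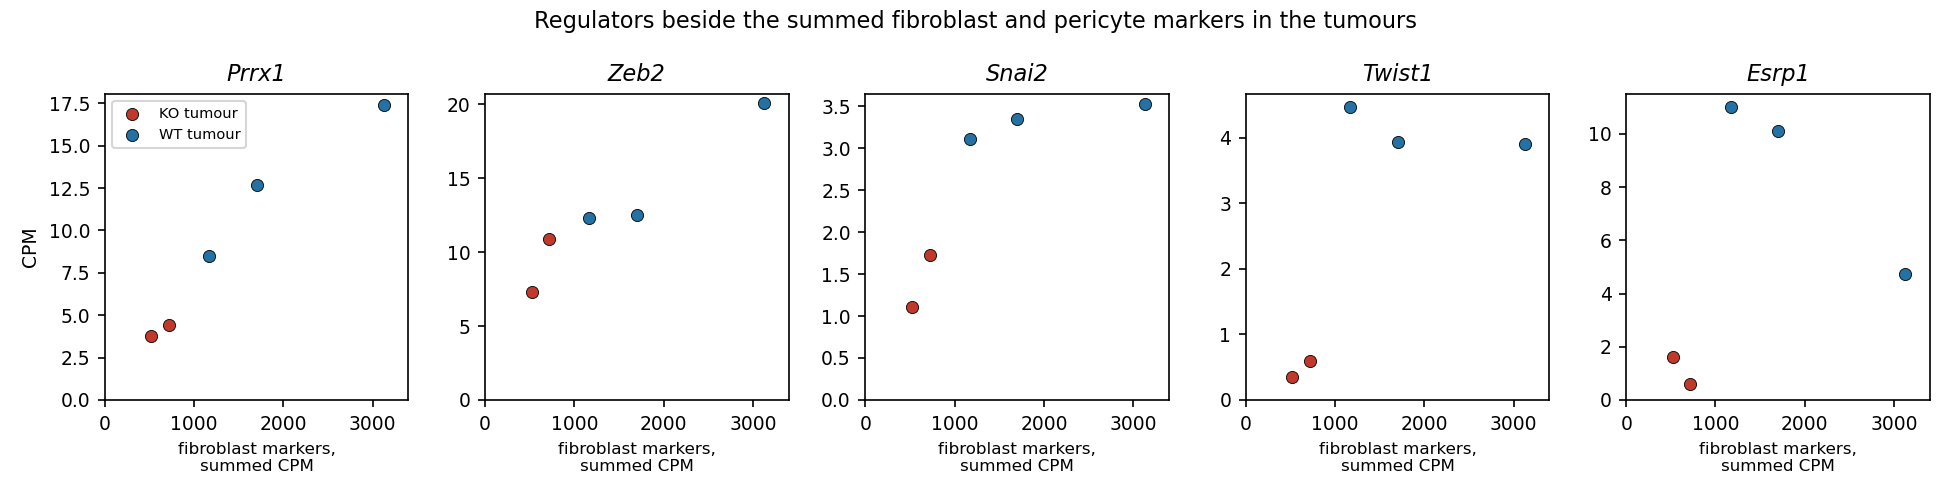
Level of 5 regulators in CPM (vertical) against the summed CPM of 14 fibroblast and pericyte markers (horizontal) in the 2 KO tumours and 3 WT tumours. Prrx1, Zeb2 and Snai2 each have the same order over the 5 libraries as the marker sum. The 3 WT tumours have 3.91 to 4.47 CPM of Twist1 at marker sums of 1169 to 3127 CPM.

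Marker sums of other cells were also measured in the tumours. Endothelial markers, another place of Snai1, Zeb1 and Zeb2 expression, summed to 68.1 and 121 CPM in KO tumours, against 132, 106 and 257 CPM in WT tumours. T and NK cell markers summed to 29.4 and 73.6 CPM in KO tumours, against 27, 28.9 and 7.06 CPM in WT tumours. Macrophages also express Zeb2. Macrophage and monocyte markers summed to 447 and 580 CPM in KO tumours, against 467, 571 and 614 CPM in WT tumours. Of these markers, 0 of 10 tested were called, beside 19.7% of all genes tested. In cultures they summed to 535 to 679 CPM, mostly from Cd14 and Mrc1. The receptor gene Csf1r averaged 32.5 ± 16.5 CPM in KO tumours (SD, n = 2) and 27.6 ± 6.77 CPM in WT tumours (SD, n = 3), with 1 count in KO cultures and 5 in WT cultures. The sum of the cancer epithelium markers was 10788 and 8296 CPM in KO tumours, against 6234, 5859 and 5008 CPM in WT tumours. The part of these cell types in the results was not tested.

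Among the factors of the epithelial state, Ovol1 (ENSMUSG00000024922, chromosome 19, 5549136 to 5560646, minus strand), a zinc-finger repressor of Zeb1 and other mesenchymal genes, had 5 and 4 counts in KO tumours, against 16, 5 and 5 counts in WT tumours. It had 1 and 0 counts in KO cultures, against 0 and 1 in WT cultures. Gm31166, which overlaps it on the opposite strand, had 5 to 48 counts per library. Grhl2 (ENSMUSG00000022286, chromosome 15, 37233036 to 37363569, plus strand), a grainyhead factor that activates Cdh1 and claudin genes, had 6 and 13 counts in KO tumours, against 7, 5 and 8 counts in WT tumours. It had 11 and 7 counts in KO cultures, against 3 and 10 in WT cultures. Neither gene passed the filter on low counts in any comparison, and each stayed under 1 CPM in all 9 libraries. The ratio of summed counts of Grhl2 was 1.71 (95% counting interval 0.862 to 3.37) in tumours and 1.33 (0.617 to 2.96) in cultures. With no filter, neither was called between KO and WT in tumours (adjusted p = 0.647 for Ovol1 and 0.589 for Grhl2) or in cultures (adjusted p = 0.99 and 0.762), so a KO difference was not detectable at this depth. Ovol1 was called in WT tumours over WT cultures with no filter (26 counts against 1, adjusted p = 0.0264), at a ratio of 12.7 (95% counting interval 2.08 to 519).

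Esrp1 (ENSMUSG00000040728, chromosome 4, 11331933 to 11386783, minus strand), a splicing regulator found in epithelial cells, had 1.63 and 0.594 CPM in KO tumours, against 10.1, 11 and 4.72 CPM in WT tumours. In cultures it had 2 and 0 counts in KO libraries, against 11 and 6 counts in WT libraries, which are 0.695 and 0.392 CPM. Both KO groups lay below their WT groups without overlap. Esrp1 fell by 2.96 on the log2 scale in KO tumours (-2.96, SE 0.59, adjusted p = 0.0179). The ratio of summed counts in cultures, where it did not pass the filter, was 0.113 (95% counting interval 0.0127 to 0.477), and with no filter its adjusted p was 0.0658. The call in tumours was lost without WT tumour 1 (adjusted p = 0.0587) or WT tumour 2 (adjusted p = 0.0633), with a range from 3.45e-06 to 0.0633 over 13 alternatives. Unlike Prrx1, Esrp1 was lowest among WT tumours in the library with the highest fibroblast marker sum.

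Esrp2 (ENSMUSG00000084128, chromosome 8, 106130319 to 106136974, minus strand), the paralogue of Esrp1 with overlapping targets, had 93.8 and 76.2 CPM in KO tumours, against 59.6, 64.9 and 59.3 CPM in WT tumours. It had 65.1 and 54.7 CPM in KO cultures, against 53.8 and 42.7 CPM in WT cultures. KO libraries lay above WT libraries in both settings without overlap, yet neither difference passed the test. The value was 0.46 in tumours (SE 0.14, adjusted p = 0.0623) and 0.27 in cultures (adjusted p = 0.319). In tumours it passed with DESeq2 (adjusted p = 0.0345), in 1 fit of all 9 libraries (adjusted p = 0.0465) and without KO tumour 3 (adjusted p = 0.0186), with a range from 0.0186 to 0.201 over 13 alternatives. Esrp2 overlaps Nfatc3 and 1810019D21Rik on the opposite strand, and no source used here gives the strand setting of the counting, so reads of the shared bases cannot be told apart. Per kilobase of exon, Esrp1 made up 1.19% and 0.534% of both ESRP genes in KO tumours, against 10.4%, 10.5% and 5.2% in WT tumours, and under 1% in each of the 4 cultures. Esrp2 was thus the main ESRP gene by level in all 9 libraries. Counts per gene say nothing of which exons were used.

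More of the regulators were called between the settings than between the genotypes, in comparisons that use the same libraries. The same held for all genes tested, of which 19.7% in tumours and 25.5% in cultures were called between the genotypes. In KO tumours against KO cultures, 7 of 8 tested passed, 6 higher and 1 lower, where 59.3% of 16793 genes were called, 32.9% higher and 26.4% lower. In WT tumours against WT cultures 6 of 8 passed, 5 higher and 1 lower, where 65.7% of genes were called, 36.1% higher and 29.6% lower. The median over all genes was 0.17 in both comparisons, and 0.60 in KO and 0.64 in WT when libraries were scaled by their totals alone. Snai2 was the regulator that fell. It averaged 1.42 CPM in KO tumours and 29.1 CPM in KO cultures (-4.35, SE 0.28, adjusted p = 1.71e-06), and 3.33 CPM in WT tumours and 26.9 CPM in WT cultures (-3.01, SE 0.22, adjusted p = 2.66e-06). Both falls passed under every alternative run, library totals included.

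The larger rises were of genes under 5 CPM in culture. Zeb2 rose by 4.28 in KO tumours over KO cultures (SE 0.42, adjusted p = 1.68e-05) and by 1.71 in WT tumours over WT cultures (SE 0.31, adjusted p = 0.000607). Prrx1 summed to 147 counts in KO tumours against 1 in KO cultures, a scaled ratio of 134 (95% counting interval 23.6 to 5309), and rose by 4.05 in WT tumours over WT cultures (SE 0.43, adjusted p = 1.83e-05). Snai1 was higher in KO tumours than in KO cultures at a ratio of 13.6 (3.46 to 118, adjusted p = 0.0167) and in WT tumours than in WT cultures at 18.5 (6.17 to 91, adjusted p = 0.00339). The first of these was lost without KO culture 1, KO culture 2 or KO tumour 3. Esrp1 was higher in KO tumours at a ratio of 17.7 (4.59 to 151, adjusted p = 0.00464), and rose by 3.96 in WT tumours (SE 0.63, adjusted p = 0.000267). Twist1 was at least 5.15-fold higher in KO tumours than in KO cultures (adjusted p = 0.00125) and rose by 1.44 in WT tumours over WT cultures (SE 0.39, adjusted p = 0.00828), a call that was lost without WT culture 2 (1.19, adjusted p = 0.0846, in a range from 0.0021 over 13 alternatives). Fibroblast, endothelial and leukocyte RNA appeared in the same tumour libraries, with fibroblast markers at 521 CPM or more in tumours and 2.72 CPM or less in cultures, and its part in these rises was not tested.

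Zeb1 and Esrp2 moved least between the settings. Zeb1 had a log2 difference of -0.41 in KO tumours against KO cultures (adjusted p = 0.0966) and 0.16 in WT tumours against WT cultures (adjusted p = 0.462). With library totals as the scale these became 0.02 and 0.63, so its direction in the KO line depends on the scaling. Esrp2 was 0.50 higher in KO tumours than in KO cultures (adjusted p = 0.0257), a call lost without KO culture 2 or KO tumour 1, and 0.35 in WT tumours against WT cultures (adjusted p = 0.075), or 0.81 with library totals.

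Per kilobase of exon, the order of the regulators differed between settings. In KO tumours Esrp2 led at 19.6 ± 2.86 CPM per kilobase, then Zeb1 at 4.41 ± 1.34 (SD, n = 2), and both stood apart from the next. Snai2, Snai1, Zeb2, Prrx1, Twist1 and Esrp1 followed between 0.702 and 0.177, each overlapping its neighbour. In WT tumours Esrp2 at 14.1 ± 0.733, Zeb1 at 4.78 ± 0.384 and Twist1 at 2.52 ± 0.194 CPM per kilobase (SD, n = 3) each stood apart from the next, and Snai2, Esrp1, Prrx1, Snai1 and Zeb2 followed in overlapping steps from 1.65 to 0.751. Twist1 ranked 7 of 10 in KO tumours and 3 of 10 in WT tumours. In KO cultures Snai2 at 14.4 ± 3.42 and Esrp2 at 13.8 ± 1.70 overlapped, and Zeb1 followed at 5.89 ± 0.617 CPM per kilobase (SD, n = 2). In WT cultures Snai2 at 13.3 ± 0.635, Esrp2 at 11.1 ± 1.81, Zeb1 at 4.28 ± 0.365 and Twist1 at 0.924 ± 0.23 CPM per kilobase (SD, n = 2) each stood apart from the next. The remaining regulators were below 0.1 in KO cultures and at 0.23 or below in WT cultures.

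Summed over the 6 inducers, Snai2 made up 10.2% and 10.5% of the level per kilobase in KO tumours, 12.7% to 14.6% in WT tumours, 68.5% and 72.5% in KO cultures and 69.4% and 71.7% in WT cultures. Zeb1 made up 64.6% and 66% in KO tumours, 36.5% to 43.5% in WT tumours, 27.2% and 31.1% in KO cultures and 22.5% and 22.9% in WT cultures. The inducer pool was thus mostly Snai2 in culture. In tumours Zeb1 was its largest part, with a greater share in both KO tumours than in any WT tumour. The pool itself was smaller in KO tumours. The 6 inducers summed to 5.37 and 8.13 CPM per kilobase there, against at least 10.6 in each WT tumour. Of all single genes tested in tumours, 53.7% also had KO and WT libraries that did not overlap. Fibroblasts also express Prrx1, Zeb2, Snai2 and Twist1, and the fibroblast marker sum was lower in KO tumours. The part of fibroblast RNA in the pool and its shares was not tested. The level of Zeb1 overlapped between KO and WT tumours and was not called (log2 fold change -0.14, edgeR adjusted p = 0.646).

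**Figure D4:**
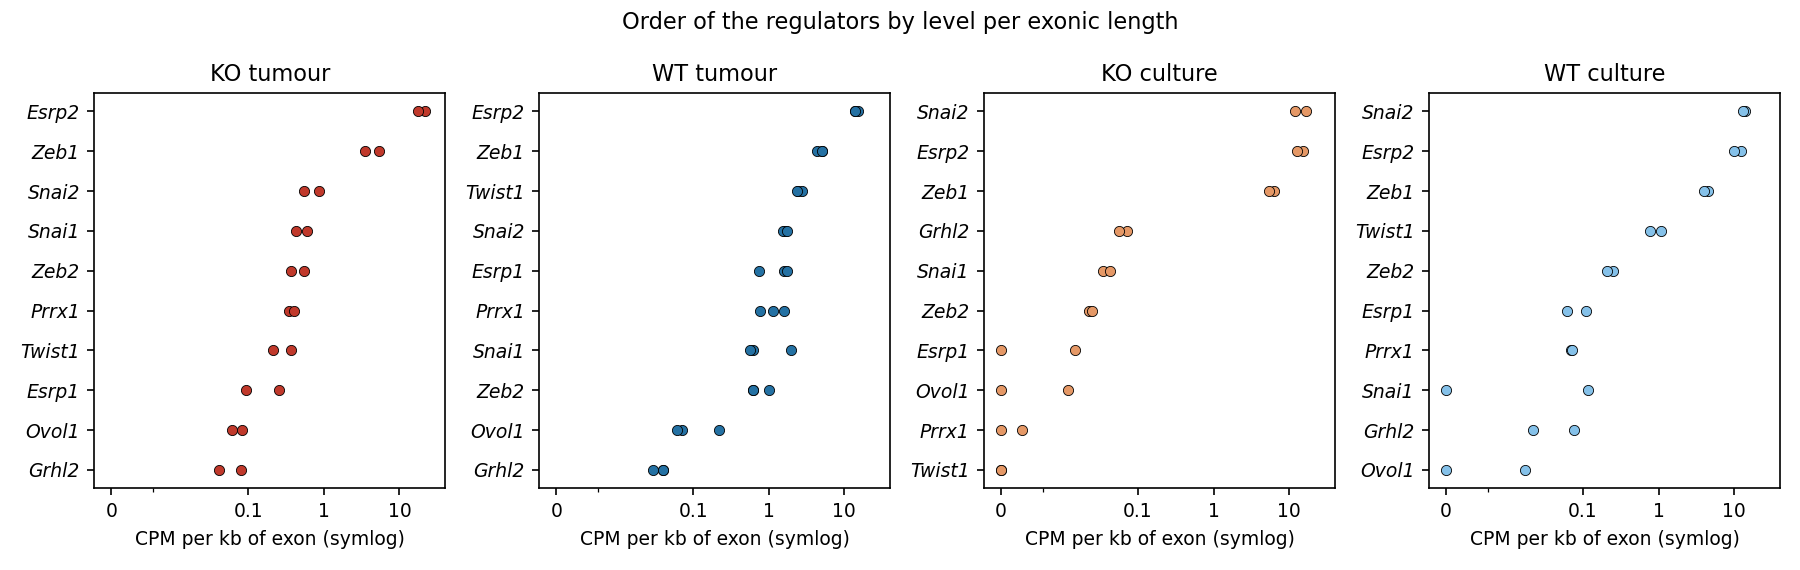
Level per kilobase of exon of the 10 regulators, ordered from highest to lowest by group mean, in KO tumours, WT tumours, KO cultures and WT cultures. Points are libraries, and the horizontal axis is logarithmic above a linear stretch near 0. Snai2 leads both culture groups and Esrp2 both tumour groups.

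The genes that these factors are known to act with were described by lists. Over all genes tested in tumours, 8.78% were called higher and 10.9% lower in KO, the shares to set beside each list. In cultures these shares were 9.27% higher and 16.2% lower. Of 22 other EMT-inducing transcription factors, 16 were tested in tumours, with 2 higher and 3 lower in KO tumours, and a median log2 fold change of -0.37 beside -0.01 for all genes. In cultures 16 were tested, with 3 higher and 6 lower in KO, and a median of 0.13 beside 0 for all genes. Twist2, the paralogue of Twist1, had 4 counts in KO tumours and 394 in WT tumours (adjusted p = 0.00204), and 3 counts in KO cultures and 96 in WT cultures (adjusted p = 0.000124). Prrx2, the paralogue of Prrx1, averaged 5.07 CPM in KO cultures and 20.6 CPM in WT cultures (-2.07, adjusted p = 1.89e-05), and 6.79 CPM in KO tumours and 25.2 CPM in WT tumours (-1.91, adjusted p = 0.0606). Sox9, a ductal progenitor factor, fell in both settings, by 2.09 in KO tumours (adjusted p = 0.00384) and 2.44 in KO cultures (adjusted p = 7.1e-06). Twist2 was thus called in both settings, like Twist1, and Prrx2 in cultures. Other members rose. Id1 was up by 1.02 in KO tumours (adjusted p = 0.0114), with 0.07 in cultures (adjusted p = 0.787). Tcf4 was up by 0.82 in KO cultures (adjusted p = 0.0118), with -0.25 in tumours (adjusted p = 0.285).

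Of 20 other epithelial transcription factors, 14 were tested in tumours, with 2 higher and 4 lower in KO, and 13 in cultures, with 2 higher and 4 lower. Klf4, a Kruppel-like factor of differentiated epithelium, rose by 1.46 in KO tumours (adjusted p = 0.00451) and by 1.31 in KO cultures (adjusted p = 0.000125). Ehf, an ETS factor of epithelia, fell by 1.75 in KO tumours (adjusted p = 0.0154) and by 0.72 in KO cultures (adjusted p = 0.0119). The list therefore held members of either direction.

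Epithelial genes repressed by ZEB and SNAI or activated by OVOL and GRHL factors were the next list. In tumours 28 of 30 were tested, with 9 higher and 3 lower in KO and a median of 0.44. In cultures 27 were tested, with 2 higher and 10 lower in KO and a median of -0.48. The KO effect in tumours minus that in culture was positive and past the threshold for 7 of 28 genes and negative for 0. Over all genes tested for this difference, 4.15% were called higher and 1.54% lower. The median of the difference was 0.73 for the list beside 0.05 for all genes. The sum of cancer epithelium markers, which shares genes with this list, was 8296 to 10788 CPM in KO tumours and 5008 to 6234 CPM in WT tumours, and 11033 to 11420 CPM in KO cultures and 11280 to 12335 CPM in WT cultures. Its part in these counts, and that of the lower fibroblast sum in KO tumours, was not tested. The 3 genes lower in KO tumours were Cldn7, Cdh3 and Epcam. The claudin gene Cldn7 averaged 1.14 CPM in KO tumours and 20.9 CPM in WT tumours (-4.21, adjusted p = 0.00141), and had 0 counts in KO cultures and 470 in WT cultures (adjusted p = 5.66e-07). Cdh3, the P-cadherin gene, fell by 1.96 in KO tumours (adjusted p = 0.0157) and by 3.46 in KO cultures (adjusted p = 8.31e-06). Epcam, an adhesion molecule gene, had 1 count in KO cultures and 109 in WT cultures (adjusted p = 2.81e-05), and averaged 37.6 CPM in KO tumours and 110 CPM in WT tumours (-1.57, adjusted p = 0.0243). The desmosome gene Dsp rose by 1.40 in KO tumours (adjusted p = 0.00551) and by 0.81 in KO cultures (adjusted p = 0.00849). Cdh1 rose by 0.62 in KO cultures (adjusted p = 0.0215), with a value of 0.29 in tumours (adjusted p = 0.213). Cells with less Zeb2, Twist1 and Prrx1 RNA in culture thus had more Cdh1 RNA but almost none of Cldn7 and Epcam.

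Of 20 mesenchymal genes induced in EMT, 19 were tested in tumours, with 11 lower and 2 higher in KO and a median of -1.31, and 12 in cultures, with 7 lower and 2 higher and a median of -1.09. Fn1, the fibronectin gene, fell by 2.24 in KO tumours (adjusted p = 0.0176) and by 2.36 in KO cultures (adjusted p = 3.62e-06). S100a4, a calcium-binding protein gene, fell by 2.75 in KO tumours (adjusted p = 0.0145) and by 2.79 in KO cultures (adjusted p = 2.4e-06). Vim went the other way, up by 0.70 in KO tumours (adjusted p = 0.0141), with 0.17 in cultures (adjusted p = 0.555). Several of this list are also fibroblast genes, and the fibroblast marker sum was lower in KO tumours, as given above.

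Among 17 splicing factors of the EMT switch other than the ESRPs, 17 were tested in tumours, with 3 higher and 2 lower in KO. In cultures 16 were tested, with 3 higher and 1 lower. The share called in either direction over all genes was 19.7% in tumours and 25.5% in cultures. Rbfox2, which directs mesenchymal exon use, fell by 0.85 in KO tumours (adjusted p = 0.0105), with 0.16 in cultures (adjusted p = 0.512), and the effects differed (-1.03, adjusted p = 0.0142). Celf2, an RNA-binding protein gene, rose by 1.70 in KO tumours (adjusted p = 0.00504) and by 1.35 in KO cultures (adjusted p = 0.00134). Khdrbs3, which encodes a STAR-family RNA-binding protein, had 0 counts in KO cultures and 53 in WT cultures (adjusted p = 0.000217), and 25 in KO tumours against 233 in WT tumours (-2.32, adjusted p = 0.0534). Of 20 genes with ESRP-dependent exons, 20 were tested in tumours, with 2 higher and 6 lower in KO, and 19 in cultures, with 3 higher and 3 lower. Enah, an actin regulator, fell by 2.38 in KO tumours (adjusted p = 0.00109) and by 0.87 in KO cultures (adjusted p = 0.00186), and Cd44, a hyaluronan receptor gene, fell by 1.27 in KO tumours (adjusted p = 0.00402) and by 1.10 in KO cultures (adjusted p = 0.000199). These are total levels of the genes, with no measure of their isoforms.

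Among the partner and upstream genes, of 23 corepressors and stability factors of SNAI and ZEB proteins, 0 were higher and 1 was lower in KO tumours, and 4 were higher and 0 lower in KO cultures. Of 12 TGF-beta ligands, receptors and SMADs, 1 was higher and 2 were lower in KO tumours, and of 11 tested in cultures 1 was higher and 2 were lower. Over all genes tested, 19.7% were called in tumours and 25.5% in cultures. Tgfbr2, the type II receptor gene, rose by 0.99 in KO tumours (adjusted p = 0.00428) and by 1.33 in KO cultures (adjusted p = 5.99e-05). The ligand gene Tgfb2 fell by 2.73 in KO tumours (adjusted p = 0.00692) and by 2.01 in KO cultures (adjusted p = 0.00702).

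**Figure D5:**
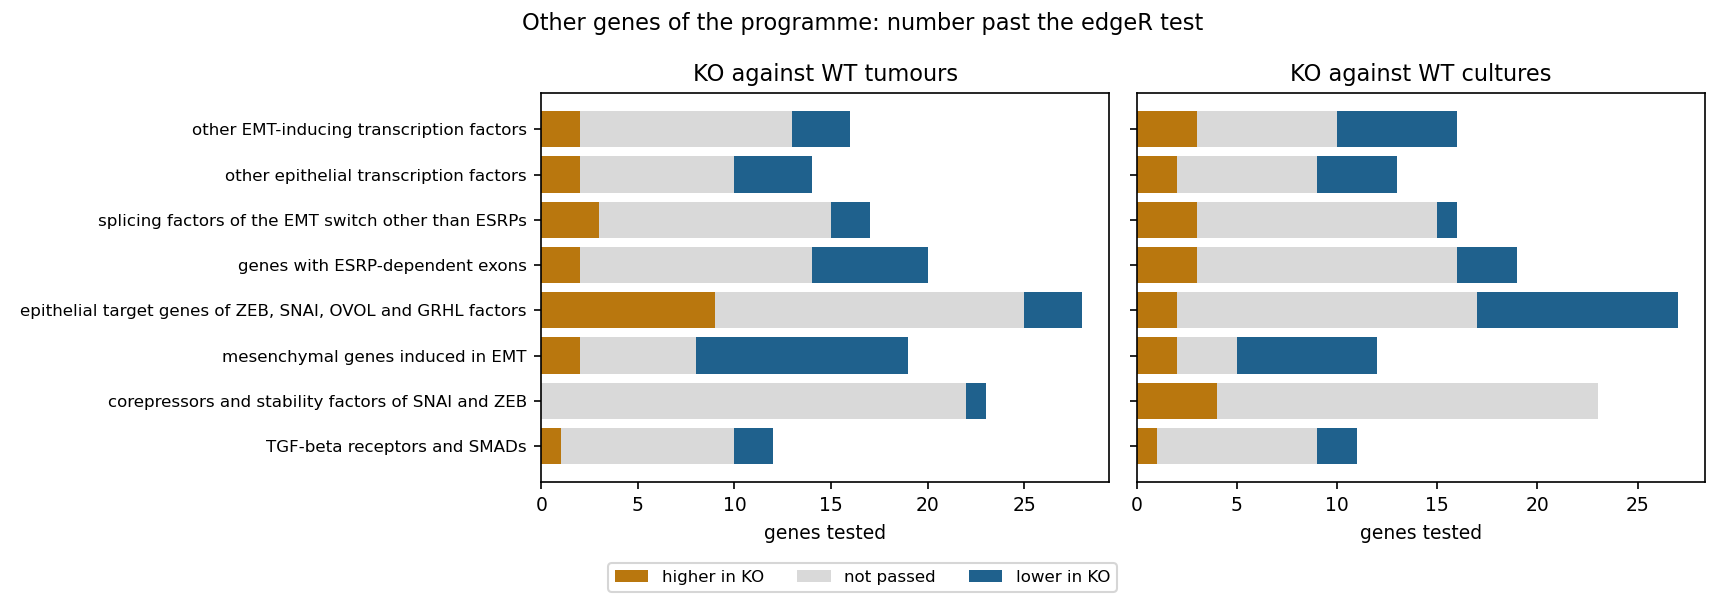
Number of tested genes of each list that were higher in KO, did not pass, or were lower in KO by edgeR's test, in tumours (left) and cultures (right). Epithelial target genes show 9 higher and 3 lower in tumours and 2 higher and 10 lower in cultures. Over all genes tested, 8.78% were higher and 10.9% lower in KO tumours, and 9.27% were higher and 16.2% lower in KO cultures.

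The genes with the most similar pattern over the 9 libraries were found by the root mean square difference of log2(CPM + 1), each gene centred on its mean, among 10368 or 10369 protein-coding genes with a mean of at least 5 CPM. Pdcd11 was among the closest to Zeb1 (0.10), and Ctnna1, the alpha-catenin gene, among the closest to Esrp2 (0.07). Snai2 was closest to Ciart (0.20) and Htra1 (0.24), which shared its high level in cultures: Ciart averaged 3.17 CPM in KO tumours, 5.44 CPM in WT tumours, 39.7 CPM in KO cultures and 34.7 CPM in WT cultures. Zeb2 was closest to Fads2 (0.25) and Spns2 (0.28), Prrx1 to Adamts2 (0.20) and P4ha3 (0.30), and Twist1 to Grb14 (0.16) and Cep97 (0.19). The added 1 flattens low genes, so the matches of Snai1 (Slc39a10, 0.16, and Dna2, 0.20), Twist1 and Esrp1 (Pcdhb16, 0.33, and Ago1, 0.34) rest partly on that constant.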

How the data were processed

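Poly(A) RNA of 9 mouse libraries was sequenced. Reads were deduplicated by unique molecular identifiers, per the labels' protocols. The submitters' processing notes name GRCm38, STAR 2.5.2b, fastp 0.23.1, DESeq2, Subread 1.5.2 and featureCounts, with no role. The annotation release and strand setting were not given in the sources used here. Raw counts per Ensembl gene, 1 table per setting, were deposited by the authors, and all values start from these counts; the deposited normalized tables were not used.

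Symbols, positions and exon lengths came from GENCODE M21, which named 49326 of 49671 IDs. Counts were tested with edgeR 4.0.16 in R 4.3.3 (filterByExpr, minimum count 10 and total 15, TMM, quasi-likelihood F-test). KO and WT were compared within each setting, in separate fits of 4 and 5 libraries. The difference of effects and tumours against cultures came from 1 fit of 9. One KO tumour has a column number, 3, that its labels (1 and 2) lack, and was matched by group only. The 10 genes and all lists were chosen with earlier results of these data known. All members are named, and from each list genes among the 4 with the smallest p-values in either setting; Vim and Csf1r were added after values were seen, and some genes that the rules name are not reported here. One list name matched no gene. Between replicates the chi-square per gene was 6.55 to 43.9, above counting noise. Scripts were checked on simulated counts. Alternatives were RLE or library-total scaling, no filter or a CPM minimum of 1, DESeq2 1.42.0, limma-voom (limma 3.58.1), a replicate block, other sets of libraries in the fit, a fold of at least 2 and leaving out each library.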

Additional observations from a re-analysis of the deposited data

Results flagged for a closer look

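The KO effect on Zeb2 differed between tumours and cultures by the test of the difference itself. Zeb2 averaged 9.1 CPM in KO tumours and 15 CPM in WT tumours, and 0.466 CPM in KO cultures and 4.58 CPM in WT cultures, and the KO effect in tumours minus that in culture was 2.57 (SE 0.51, edgeR adjusted p = 0.0159). Both effects pointed down, and the call of the difference held under 12 of 16 alternatives. Tumour libraries also hold RNA of host cells, whose part in this difference and the next was not tested.

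The KO effect on Snai2 also differed, with a call close to the threshold that held under 5 of 16 alternatives. Snai2 averaged 1.42 CPM in KO tumours and 3.33 CPM in WT tumours, and 29.1 CPM in KO cultures and 26.9 CPM in WT cultures, and the KO effect in tumours minus that in culture was -1.34 (SE 0.35, edgeR adjusted p = 0.0489).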

How the results depend on the processing

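Of the regulators called, Zeb2 and Twist1 in cultures and Twist1 in tumours kept their call and direction under every alternative run, and Prrx1 in cultures under the 9 that tested it. The number of regulators called between KO and WT tumours was 4, and 1 to 5 with 1 library left out (1 without WT tumour 1, 2 without KO tumour 1 or WT tumour 2). In cultures it was 3, and 2 to 4 with 1 library left out. For the difference of effects it was 2, then 1 with library totals, 0 with limma-voom and 0 to 3 with 1 library left out.

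Genes called in cultures numbered 3461, 1776 at a fold of at least 2, and 2130 to 2985 with 1 library left out. In tumours they numbered 3206, 1832 at that fold, and 1171 to 4143 with 1 left out. For the difference they numbered 955, 1875 with no filter, 1625 with DESeq2, and 288 to 1651 with 1 left out.

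Same-numbered cultures deviated together (correlation 0.498 for both pairs, which mirror each other), and tumours did not (-0.00252 and 0.0369). The labels tie no number to a shared day or batch, and with 2 pairs of cultures the correlation cannot settle it, so numbers were not taken as pairs. With the replicate block, 5 regulators and 7587 genes were called in cultures, Zeb1 (adjusted p = 9.83e-06) and Esrp2 (adjusted p = 0.00469) being added, 1428 genes in tumours, and 1 regulator and 546 genes for the difference. No block could be fitted for KO tumours against KO cultures.

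Values that changed sign were not called in either form: Snai2 in cultures (-0.19 without KO culture 1, in a range up to 0.3), Zeb1 in tumours (0.14 without KO tumour 1, in a range down to -0.45), Zeb1 in KO tumours against KO cultures (0.02 with library totals), and for the difference Snai1 (0.5 without WT culture 2, 0.4 without WT tumour 3, lowest -4.37), Esrp2 (-0.01 without WT culture 1, highest 0.33) and Esrp1 (-0.01 with library totals, -0.02 with limma-voom, and -0.72, -0.39, -0.79 and -0.22 without KO culture 2, WT culture 1, KO tumour 1 and WT tumour 3, highest 3.39). The cause was not tested. Depth limits Ovol1, Grhl2 and, in cultures, Snai1, Twist1, Prrx1 and Esrp1.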
